A study of Mus musculus with 30 samples.

Results

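Prune2, Mycl, Castor2, Cystm1, Gal3st2, Mss51, Slc22a4, Plpp7 and Pgbd5 are 9 mouse genes whose mRNA was much lower with a MyoD protein that cannot be acetylated at lysines 99, 102 and 104 than with the wild-type protein. They were picked from these arrays for that difference at 1 or more times, with no fixed size stated, and are 9 of the 18193 genes and 18 of the 45037 probe sets measured. The difference between the 2 proteins is therefore a description here and carries no test. Cells without MyoD, the 0 h arrays and the relatives of the 9 genes were not used in the choice. The arrays of both fusions were used. Counts and tests of the 9 genes against cells without MyoD, against 0 h or between times of a fusion are thus not independent of the choice. It favours high wild-type and low mutant levels. With the mutant protein 3, 4 and 6 of the 9 genes were higher than in cells without MyoD at 6, 12 and 24 h, where 4.05%, 2.89% and 5.15% of all probe sets were. With the wild-type protein 6, 9 and 9 were, where 3.85%, 4.46% and 7.33% of all probe sets were.

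The cells were mouse embryonic fibroblasts from MyoD-/-/Myf5-/- animals, so all groups lack their own copies of these muscle regulators. They carried a retrovirus for ER-MyoD RRR, in which the 3 lysines are mutated, for ER-MyoD wt, or no insert (empty retrovirus). ER is the hormone binding domain of the estrogen receptor, which keeps a fused protein inactive until estradiol is added. Arrays of 1 colour were made from total RNA in 10 groups of 3: ER-MyoD RRR at 6, 12 and 24 h, ER-MyoD wt at 0, 6, 12 and 24 h, and empty retrovirus at 6, 12 and 24 h. Time was counted in differentiation medium, which held beta-estradiol by the study's design. Only ER-MyoD wt had 0 h arrays among those analysed here, and its change from 0 h cannot be told apart from that of medium and hormone. The fusions are made from a virus in fibroblasts and are no measure of MyoD at its own locus. The labels do not state whether the 3 replicates of a group came from separate cultures. P-values here cover just the spread among these samples, which may be technical.

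MyoD is a basic helix-loop-helix factor that binds E-boxes, DNA words of the form CANNTG, with an E protein as its partner, and it turns fibroblasts into muscle cells. Acetyltransferases such as p300 and PCAF modify lysines next to its basic region, and in mouse cells this raises its activity on muscle genes. The 9 genes fall in different classes. Mycl is a transcription factor and Castor2 a component of amino acid sensing, Mss51 and Plpp7 are muscle proteins of mitochondria and the nuclear envelope, Gal3st2 and Slc22a4 are an enzyme of the Golgi and a transporter, Cystm1 is a small membrane protein, Prune2 a large protein with a BCH domain, and Pgbd5 a gene derived from a transposase.

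Promoter windows were available for 8 of the 9 genes (RefSeq, GRCm38.p6, 250 bases before to 50 after the start), and are shown because MyoD binds E-boxes. The word CAGCTG, which reads the same on both strands and is 1 form of CANNTG, stood in 4 of the 8 windows, against 16.3% of all 32851 windows of this length. CANNTG in any form stood in 6 of 8, against 72.3% of all windows, and CAGGTG or its reverse complement CACCTG in 2 of 8 (Mycl and Plpp7), against 20.2%. The 4 windows with CAGCTG follow, with that word in capitals.
Castor2, chr5:134099498-134099797, plus strand: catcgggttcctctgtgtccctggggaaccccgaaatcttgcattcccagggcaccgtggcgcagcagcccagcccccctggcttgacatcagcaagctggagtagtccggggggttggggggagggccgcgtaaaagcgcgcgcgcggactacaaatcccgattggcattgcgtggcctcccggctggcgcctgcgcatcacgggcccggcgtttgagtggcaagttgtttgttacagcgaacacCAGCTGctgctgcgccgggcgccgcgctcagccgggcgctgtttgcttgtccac
Gal3st2, chr1:93861094-93861393, plus strand: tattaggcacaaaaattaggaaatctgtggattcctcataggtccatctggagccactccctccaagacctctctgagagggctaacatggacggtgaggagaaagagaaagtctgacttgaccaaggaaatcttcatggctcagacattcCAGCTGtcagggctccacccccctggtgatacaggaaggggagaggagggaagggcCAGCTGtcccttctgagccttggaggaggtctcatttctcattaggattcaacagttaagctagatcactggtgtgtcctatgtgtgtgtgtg
Plpp7, chr2:32095278-32095577, plus strand: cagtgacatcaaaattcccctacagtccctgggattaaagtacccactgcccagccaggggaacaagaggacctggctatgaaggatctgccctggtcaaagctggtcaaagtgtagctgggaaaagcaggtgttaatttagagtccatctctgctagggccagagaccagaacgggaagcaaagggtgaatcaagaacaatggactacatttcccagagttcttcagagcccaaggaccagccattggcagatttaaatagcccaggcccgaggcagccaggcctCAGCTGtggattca
Prune2, chr19:16955868-16956167, plus strand: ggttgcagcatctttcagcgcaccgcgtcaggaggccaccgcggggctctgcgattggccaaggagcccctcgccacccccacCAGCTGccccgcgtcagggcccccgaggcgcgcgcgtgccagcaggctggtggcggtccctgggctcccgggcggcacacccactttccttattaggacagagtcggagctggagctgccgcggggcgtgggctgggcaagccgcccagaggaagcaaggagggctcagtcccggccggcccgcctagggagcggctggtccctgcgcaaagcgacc
Counted from the annotated start, the first base of the word lay 4 bases upstream in Castor2, 99 and 43 bases upstream in Gal3st2, 167 bases upstream in Prune2, and at base 37 after the start in Plpp7. Gal3st2 is the only one of the 8 whose window held the word more than once. These matches describe the letters of the windows and show no binding, and windows without the word say nothing about MyoD.

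The construct was checked first on Myod1. Its mean signal was 863, 535 and 471 with ER-MyoD RRR at 6, 12 and 24 h, 1185, 897, 802 and 612 with ER-MyoD wt at 0, 6, 12 and 24 h, and 167, 182 and 228 with empty retrovirus. Both fusions passed above empty retrovirus at every time, by 2.10, 1.42 and 1.07 for ER-MyoD RRR and 2.32, 2.03 and 1.45 for ER-MyoD wt on the log2 scale, and ER-MyoD RRR minus ER-MyoD wt was -0.22, -0.61 and -0.38 on the log2 scale with adjusted p = 0.867, 0.734 and 0.765 (limma), which does not show equal amounts. A further Myod1 probe set had group means of 11.3 to 28.7, and both fusions overlapped empty retrovirus on it at 6 h and 12 h. Where these probe sets lie relative to the deletion is not known here. Of the 8 fibroblast markers Col1a1 averaged at least 1733 in every group and Lum at most 210.3. Summed over 8 skeletal muscle markers the signal at 6 h was 438 to 727 with ER-MyoD RRR, 1473 to 1603 with ER-MyoD wt and 205 to 244 with empty retrovirus. At 12 h it was 1920 to 2134 with ER-MyoD RRR, 5394 to 5820 with ER-MyoD wt and 183 to 324 with empty retrovirus. The mutant lay below the wild type in this sum at each time, as it did for most of the 9 genes. At 6 h the sum was mostly Mymk (mean 215 with ER-MyoD RRR and 1010 with ER-MyoD wt) and Actc1 (166 and 344). Of the dimmer markers Myog (9.47 and 24.4), Tnnt3 (20.1 and 27.8) and Myh3 (7.30 and 14.6) had lower means with the mutant at 6 h, all at dim signals. For Myog the arrays of the 2 fusions overlapped and the difference did not pass (limma, adjusted p = 0.143). Ckm was at 27.2 and 27.9, and Chrna1 (48.3 and 46.5) and Des (73.0 and 45.9) were not lower with it. At 24 h the sum was 17230 to 19684 with ER-MyoD RRR, 26024 to 29256 with ER-MyoD wt and 187 to 255 with empty retrovirus, while the 8 fibroblast markers summed to 30591 to 36183 with ER-MyoD RRR, 17747 to 25407 with ER-MyoD wt and 38405 to 46561 with empty retrovirus. The 5 smooth muscle markers summed at 6 h to 11852 to 15034 with ER-MyoD RRR, 16172 to 20709 with ER-MyoD wt and 1236 to 1579 with empty retrovirus. With ER-MyoD wt they already summed to 19474 to 28057 at 0 h, and empty retrovirus had no 0 h arrays here. Whether cells with a fusion differed from empty retrovirus cells before differentiation medium was not tested. Macrophage, endothelial, epithelial and adipocyte markers summed to 285 to 834, 69.5 to 317, 149 to 656 and 29.8 to 113 over all arrays. In bulk samples fewer differentiated cells and less mRNA per cell cannot be told apart, and the part of these markers in the results below was not tested. Neuronal markers, of interest because Prune2 and Pgbd5 are also expressed in neurons, summed to 231 to 529 over all arrays, with Snap25 at 9.58 to 24.3 as a group mean. The 3 arrays with the lowest mean correlation with their own group were ER-MyoD RRR 6 h replicate 2 (0.927), empty retrovirus 12 h replicate 1 (0.936) and ER-MyoD wt 24 h replicate 3 (0.939). The first also had the highest 3' to 5' ratios of Gapdh (2.44) and Actb (3.61), which rise as RNA degrades, and the next highest were 1.40 and 2.07. Without these 3 arrays the number of the 9 genes above empty retrovirus was 3, 4 and 6 with ER-MyoD RRR and 6, 8 and 9 with ER-MyoD wt at 6, 12 and 24 h, against 3, 4 and 6 and 6, 9 and 9 with all arrays.

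Signals are given as deposited, on a linear scale, and a difference is on the scale log2(signal + 16) after quantile normalization, with the standard error of the limma model and n = 3 arrays per group. A difference passed at an adjusted p under 0.05, with Benjamini-Hochberg adjustment over all 45037 probe sets. The added 16 understates changes of dim genes, and no detection call was used here, so signals under about 16 are given as values and no fold is formed from them. Each gene stands for its brightest probe set, while shares of all probe sets also count dimmer probe sets of a gene and those without a symbol. Signals of different genes come from different probes and are not compared with each other.

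Mycl, the member of the MYC family known as L-Myc, was low without MyoD and higher with both fusions from 6 h on. At 6 h the signal was 50.6, 43.6 and 75.7 with ER-MyoD RRR, 388, 332 and 349 with ER-MyoD wt and 6.64, 5.82 and 6.19 with empty retrovirus. At 12 h it was 222, 190.0 and 193 with ER-MyoD RRR, 691, 645 and 653 with ER-MyoD wt and 12.4, 7.02 and 8.66 with empty retrovirus. At 24 h it was 197, 193 and 181 with ER-MyoD RRR, 349, 402 and 257 with ER-MyoD wt and 11.8, 8.61 and 41.8 with empty retrovirus. No arrays of the 3 constructs overlapped at any of these times, and the wild-type level was highest at 12 h. The 0 h arrays of ER-MyoD wt gave 9.68, 18.2 and 13.2. ER-MyoD RRR lay above empty retrovirus by 1.80 ± 0.25 with adjusted p = 8.71e-06 at 6 h, 3.17 ± 0.25 with adjusted p = 3.52e-10 at 12 h and 2.57 ± 0.25 with adjusted p = 1.19e-08 at 24 h. ER-MyoD wt lay above it by 4.08 ± 0.25, 4.79 ± 0.25 and 3.37 ± 0.25, and all of these passed. In order of mean level the groups ran from ER-MyoD wt at 12, 6 and 24 h over ER-MyoD RRR at 12, 24 and 6 h to empty retrovirus and 0 h, and 4 of the 9 neighbouring pairs overlapped. The mutant arrays of 12 h and 24 h overlapped, while the wild-type arrays at 24 h lay wholly below those at 12 h. A further Mycl probe set, 1422088_at, lay above empty retrovirus with ER-MyoD wt at every time (1.23, 2.31 and 1.61) and with ER-MyoD RRR at 12 h (1.23) and 24 h (1.01), all of which passed. The probe set 1422087_at passed only with ER-MyoD wt at 12 h (1.56).

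Castor2 with the mutant overlapped empty retrovirus at all 3 times. The protein binds GATOR2, an activator of mTORC1 signalling, in the sensing of amino acids, as known from human cells. With ER-MyoD RRR the signal was 154, 116 and 181 at 6 h, 139, 67.1 and 141 at 12 h and 81.6, 117 and 83.0 at 24 h. With ER-MyoD wt it was 101, 67.1 and 128 at 0 h, 451, 473 and 392 at 6 h, 254, 261 and 299.6 at 12 h and 234, 203 and 166 at 24 h. Empty retrovirus gave 137, 193 and 97.5 at 6 h, 167, 110.5 and 121 at 12 h and 129.7, 131 and 101 at 24 h. From 6 h on the wild-type arrays lay above both other constructs at the same time and were highest at 6 h. ER-MyoD RRR minus empty retrovirus was 0.28 ± 0.24 at 6 h, -0.14 ± 0.24 at 12 h and -0.35 ± 0.24 at 24 h, and none passed (adjusted p = 0.581, 0.864 and 0.437), which does not show that the levels were equal. ER-MyoD wt rose over empty retrovirus by 1.63 ± 0.24 with adjusted p = 1.74e-05 at 6 h, 1.02 ± 0.24 with adjusted p = 0.00425 at 12 h and 0.76 ± 0.24 with adjusted p = 0.0266 at 24 h. The 24 h call was lost in turn without each of ER-MyoD wt replicates 1 and 2 and empty retrovirus replicates 1 and 3 (adjusted p = 0.061 to 0.11), and with signals as deposited (0.0633) or median centring (0.0668). Within ER-MyoD RRR the level at 24 h was lower than at 6 h by a log2 difference of -0.82 ± 0.24 (adjusted p = 0.0166), although the highest array at 24 h (117) just exceeded the lowest at 6 h (116). The wild-type groups from 6 h on held the 3 highest places and the other 7 groups, from 150 to 93.9 in mean signal, overlapped each with its neighbour. The probe set 1437252_at of Castor2 was likewise higher with ER-MyoD wt than with empty retrovirus at 6 h (1.44, passed) but not at 12 h or 24 h (0.34 and 0.06), 1443925_at passed only with ER-MyoD RRR at 12 h (1.29), and 1422151_at in no comparison with empty retrovirus.

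Prune2 had the widest gap between mutant and wild type at 6 h. The protein carries a BCH domain and is a relative of Prune1. At 6 h the signal was 121, 64.3 and 145 with ER-MyoD RRR, 682, 1594 and 1298 with ER-MyoD wt and 44.2, 49.2 and 52.3 with empty retrovirus. At 12 h it was 427, 621 and 255 with ER-MyoD RRR, 1139.5, 1200.2 and 1191 with ER-MyoD wt and 58.4, 38.9 and 57.7 with empty retrovirus. At 24 h it was 649, 977 and 1414 with ER-MyoD RRR, 2179, 3988 and 1762 with ER-MyoD wt and 105, 133 and 56.3 with empty retrovirus. The mutant arrays stood above empty retrovirus and below wild type at each time, and the 0 h arrays of ER-MyoD wt, at 86.9, 192 and 71.8, overlapped the mutant at 6 h. ER-MyoD RRR minus empty retrovirus did not pass at 6 h (1.06 ± 0.35 with adjusted p = 0.0585) and passed at 12 h (2.74 ± 0.35 with adjusted p = 3.12e-06) and 24 h (3.33 ± 0.35 with adjusted p = 6.13e-08). The 6 h difference passed without ER-MyoD RRR replicate 2, the lowest of its group (1.37, adjusted p = 0.0197), or without the 3 arrays that stood apart (0.0208). With all arrays it passed with a replicate block (0.0421), log2(signal + 1) (0.0324), a filter at a mean signal of 50 (0.0337) or 1 probe set per gene (0.0406), each an adjusted p. ER-MyoD wt minus empty retrovirus was 4.14 ± 0.35, 4.20 ± 0.35 and 4.61 ± 0.35, all passed. The mutant arrays at 24 h, with a mean of 1013, overlapped the wild-type arrays at 12 h, with a mean of 1177. In order of mean level ER-MyoD wt at 24, 6 and 12 h was followed by ER-MyoD RRR at 24 and 12 h, then by 0 h, the mutant at 6 h and empty retrovirus, and 6 of the 9 neighbouring pairs overlapped. Of the other Prune2 probe sets, 1455342_at lay above empty retrovirus at every time with ER-MyoD RRR (1.57, 1.66 and 1.92) and ER-MyoD wt (2.59, 2.17 and 2.56), all passed. Its mutant and wild-type arrays did not overlap at 6 h but overlapped at 12 h and 24 h. The probe set 1439274_at passed only with ER-MyoD wt at 24 h (1.15), and 1430757_at in no comparison with empty retrovirus.

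**Figure D1:**
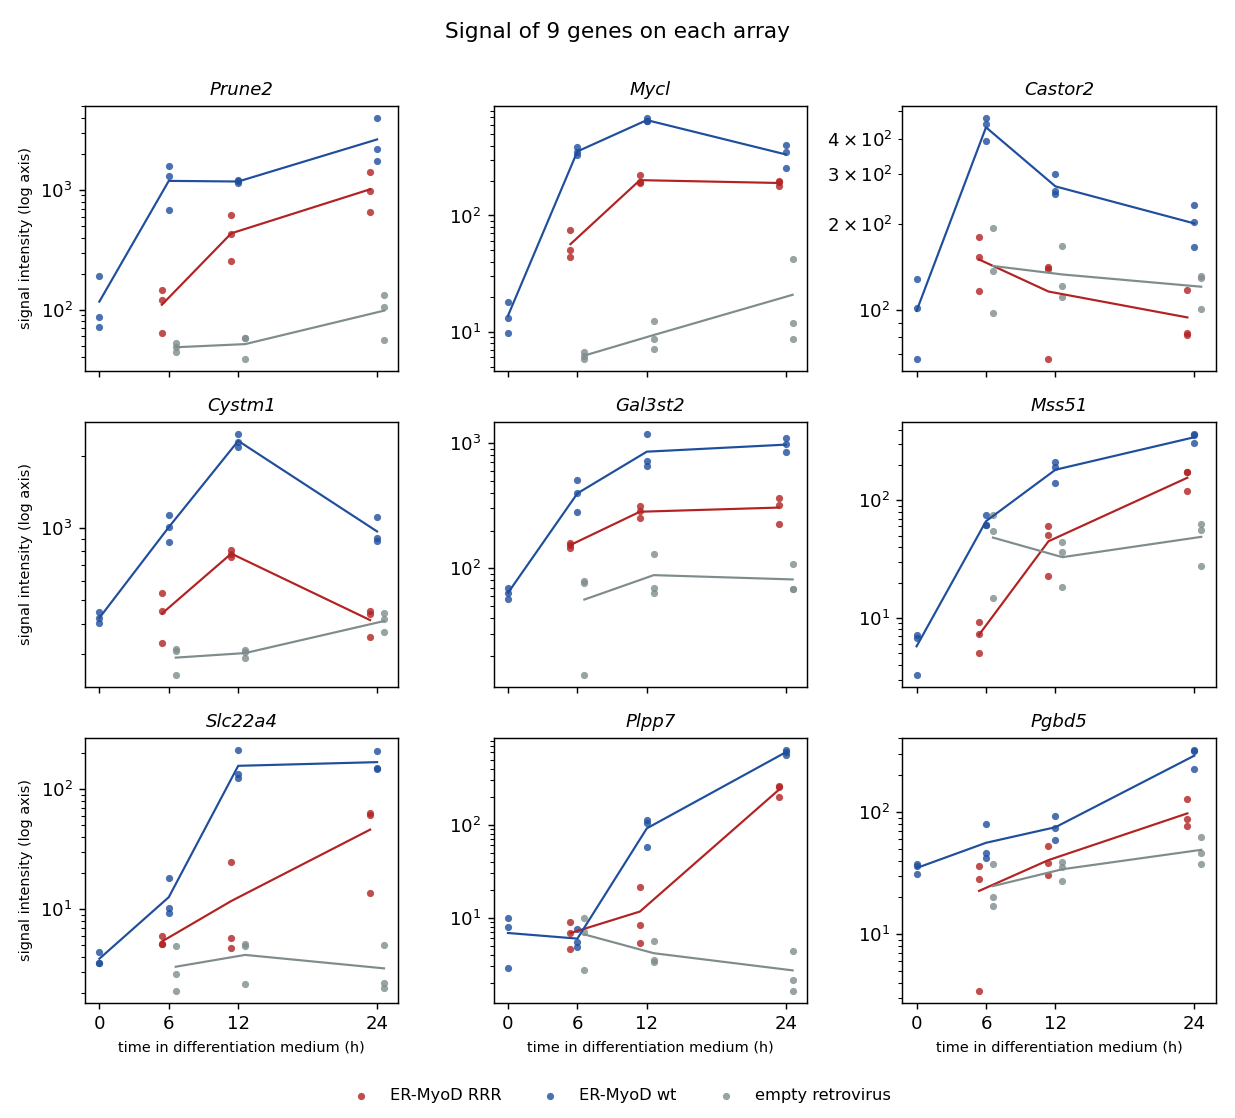
Signal intensity (log axis) of the brightest probe set of each of the 9 genes against time in differentiation medium in hours, with 1 point per array and lines through the mean of 3 arrays. On these probe sets ER-MyoD RRR arrays lay below ER-MyoD wt arrays for 8 genes at 6 h and all 9 at 12 h and 24 h. This restates the choice of the genes and was not counted over all probe sets. Castor2 with ER-MyoD RRR overlapped empty retrovirus at all 3 times.

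Gal3st2, which encodes an enzyme that puts sulfate on galactose in sugar chains, was intermediate with the mutant at every time. At 6 h the signal was 160.0, 146 and 154 with ER-MyoD RRR, 400.2, 279.6 and 508 with ER-MyoD wt and 75.6, 14.1 and 78.9 with empty retrovirus. At 12 h it was 249.6, 313 and 285 with ER-MyoD RRR, 658, 718 and 1180.2 with ER-MyoD wt and 131, 70.2 and 63.3 with empty retrovirus. At 24 h it was 227, 320.4 and 367 with ER-MyoD RRR, 975, 1091 and 843 with ER-MyoD wt and 108, 67.7 and 68.9 with empty retrovirus. At each time the mutant arrays lay between those of the other 2 constructs without overlap, and 0 h had 63.8, 69.5 and 57.3. ER-MyoD RRR was higher than empty retrovirus by 1.59 ± 0.29 with adjusted p = 0.000441, 1.63 ± 0.29 with adjusted p = 0.000392 and 1.81 ± 0.29 with adjusted p = 4.99e-05 at 6, 12 and 24 h. The 6 h call was lost when only the 6 arrays of those groups were fitted (adjusted p = 0.0719). ER-MyoD wt was higher by 2.71 ± 0.29, 3.10 ± 0.29 and 3.45 ± 0.29, all passed. The order of mean levels ran from ER-MyoD wt at 24, 12 and 6 h over ER-MyoD RRR at 24, 12 and 6 h to empty retrovirus and 0 h, with 6 overlapping neighbours, among them the wild type at 6 h and the mutant at 24 h. The gene has close copies in the mouse, Gal3st2b and Gal3st2c, and whether its probe set reads them too is uncertain. The 1 probe set of Gal3st2c was at a mean of 5.11 to 8.16 with ER-MyoD wt from 6 h to 24 h.

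Slc22a4, a transporter of organic cations such as ergothioneine, was near the bottom of the scale in most groups and high only late. With ER-MyoD RRR it gave 5.10, 5.94 and 5.12 at 6 h, 24.6, 4.78 and 5.79 at 12 h and 61.3, 63.1 and 13.8 at 24 h. With ER-MyoD wt it gave 3.59, 4.42 and 3.59 at 0 h, 10.2, 18.4 and 9.30 at 6 h, 213, 124 and 133 at 12 h and 151, 147 and 206 at 24 h. All 9 empty retrovirus arrays lay between 2.10 and 5.16. At 12 h only 1 mutant array, at 24.6, lay well above those of empty retrovirus, and at 24 h 1 of the 3 mutant arrays stayed at 13.8. ER-MyoD RRR minus empty retrovirus did not pass at 6 h (0.19) or 12 h (0.49) and passed at 24 h (1.44 ± 0.30 with adjusted p = 0.00127). ER-MyoD wt minus empty retrovirus did not pass at 6 h (0.64, adjusted p = 0.267) and did at 12 h (3.15 ± 0.30 with adjusted p = 1.05e-08) and 24 h (3.26 ± 0.30 with adjusted p = 2.18e-09). The 6 h difference passed with log2(signal + 1) (1.89, adjusted p = 0.0424), and the wild-type arrays at 6 h lay above all empty retrovirus arrays. The wild-type levels of 12 h and 24 h overlapped, and both lay above every mutant array. Below them, the lower groups each overlapped the next in the order of means, which ran ER-MyoD RRR at 24 h, ER-MyoD wt at 6 h, ER-MyoD RRR at 12 h and 6 h, and then empty retrovirus and 0 h.

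Cystm1, a small cysteine-rich membrane protein, was highest at 12 h with both fusions. Its signal with ER-MyoD RRR was 332, 536 and 452 at 6 h, 779, 812 and 759 at 12 h and 352, 437 and 452 at 24 h. With ER-MyoD wt it was 446, 420.0 and 401 at 0 h, 1012, 1139 and 878 at 6 h, 2291, 2178 and 2473 at 12 h and 881, 1112 and 914 at 24 h. Empty retrovirus had 314, 245 and 306 at 6 h, 311, 306 and 288 at 12 h and 368, 417 and 445 at 24 h. The 12 h arrays were the highest of either fusion, the mutant's at 12 h lay below the wild type's at 6 h, and at 24 h the mutant overlapped empty retrovirus. ER-MyoD RRR was higher than empty retrovirus at 6 h (0.61 ± 0.14 with adjusted p = 0.00575) and 12 h (1.32 ± 0.14 with adjusted p = 1.97e-07), and the 24 h difference was 0.05 ± 0.14 with adjusted p = 0.897. The 6 h call was lost without ER-MyoD RRR replicate 2 (0.0561) or empty retrovirus replicate 2 (0.0602), without the 3 arrays that stood apart (0.0559) and with only the groups compared (0.148), as adjusted p. ER-MyoD wt was higher by 1.74 ± 0.14, 2.85 ± 0.14 and 1.23 ± 0.14, all passed. Cystm1 was the only one of the 9 that passed between 24 h and 6 h in empty retrovirus (0.51 ± 0.14 with adjusted p = 0.0195), where 9.01% of all probe sets passed in either direction, and that call was lost without empty retrovirus 6 h replicate 2, 24 h replicate 2 or 24 h replicate 3. By mean level ER-MyoD wt at 12, 6 and 24 h came first, then ER-MyoD RRR at 12 h and 6 h, 0 h and ER-MyoD RRR at 24 h, and last empty retrovirus, with 5 overlapping neighbours. Its other probe set, 1441883_at, passed in none of the comparisons with empty retrovirus.

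Mss51, a mitochondrial protein of skeletal muscle that restrains oxidative metabolism in mice, was the only one of the 9 that was lower with the mutant than in cells without MyoD, at 6 h. At 6 h the signal was 5.06, 9.30 and 7.26 with ER-MyoD RRR, 62.3, 61.4 and 75.8 with ER-MyoD wt and 74.7, 14.9 and 55.2 with empty retrovirus. At 12 h it was 61.0, 51.2 and 22.6 with ER-MyoD RRR, 212, 142 and 192 with ER-MyoD wt and 18.2, 36.6 and 43.8 with empty retrovirus. At 24 h it was 173, 175 and 119.5 with ER-MyoD RRR, 308, 367 and 358 with ER-MyoD wt and 27.5, 56.1 and 63.3 with empty retrovirus. The 6 h mutant arrays were as low as the 0 h arrays of ER-MyoD wt (6.71, 7.22 and 3.29), and 1 empty retrovirus array at 6 h came close to them. ER-MyoD RRR was lower than empty retrovirus at 6 h (-1.23 ± 0.34 with adjusted p = 0.0218), did not pass at 12 h (0.43) and was higher at 24 h (1.42 ± 0.34 with adjusted p = 0.00527). The 6 h call was lost in turn without each of ER-MyoD RRR replicates 1 and 3 and empty retrovirus replicates 1 and 3 (adjusted p = 0.0522 to 0.168), with log2(signal + 64) (0.0681) and with only the groups compared (0.142), and the 24 h call without empty retrovirus replicate 1 (0.0566). ER-MyoD wt minus empty retrovirus was 0.69 ± 0.34 with adjusted p = 0.306 at 6 h, 2.12 ± 0.34 with adjusted p = 6.26e-05 at 12 h and 2.60 ± 0.34 with adjusted p = 1.35e-06 at 24 h. ER-MyoD wt at 24 h had the highest mean, followed by ER-MyoD wt at 12 h, which overlapped ER-MyoD RRR at 24 h, and 6 of the 9 neighbouring pairs overlapped. Against its own 0 h level ER-MyoD wt was higher already at 6 h, by 1.99 ± 0.34 with adjusted p = 0.000155.

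Plpp7, a protein of the nuclear envelope in muscle also known as NET39, was at the bottom of the scale in all 3 constructs at 6 h. With ER-MyoD RRR the signal was 9.09, 4.56 and 6.85 at 6 h, 5.38, 21.2 and 8.36 at 12 h and 255, 260.0 and 197 at 24 h. ER-MyoD wt gave 9.83, 7.87 and 2.87 at 0 h, 5.49, 4.83 and 7.57 at 6 h, 112, 105 and 57.9 at 12 h and 566, 640.0 and 600.2 at 24 h. The 9 empty retrovirus arrays lay between 1.64 and 10.04. At 6 h all 3 constructs overlapped, at 12 h only the wild-type arrays stood apart, and at 24 h all 3 constructs were separate. Differences from empty retrovirus for ER-MyoD RRR were 0.09 at 6 h and 0.51 at 12 h, which did not pass, and 3.72 ± 0.25 with adjusted p = 1.51e-11 at 24 h. Those for ER-MyoD wt were 0.05 at 6 h, which did not pass, 2.47 ± 0.25 with adjusted p = 3.46e-08 at 12 h and 5.06 ± 0.25 with adjusted p = 1.02e-14 at 24 h. Plpp7 was the only gene of the 9 whose mutant arrays at 24 h all lay above the wild-type arrays at 12 h, with a mean of 237 against 91.5. ER-MyoD wt at 24 h stood above both, and the other 7 groups, with means of 2.72 to 11.7, each overlapped the next.

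Pgbd5, a domesticated piggyBac transposase known from neurons, passed against empty retrovirus with ER-MyoD wt only. The ER-MyoD RRR arrays gave 3.46, 36.1 and 28.3 at 6 h, 30.6, 52.3 and 38.4 at 12 h and 128, 77.1 and 87.5 at 24 h. The ER-MyoD wt arrays gave 37.2, 36.4 and 30.8 at 0 h, 46.3, 79.2 and 42.4 at 6 h, 93.0, 58.8 and 73.5 at 12 h and 318, 323 and 227 at 24 h, and the empty retrovirus arrays 17.04, 37.3 and 20.02 at 6 h, 38.9, 35.8 and 27.4 at 12 h and 46.6, 62.6 and 37.9 at 24 h. In the order of group means 8 of the 9 neighbouring pairs overlapped, and ER-MyoD wt at 24 h stood alone at the top. ER-MyoD RRR passed against empty retrovirus at no time (-0.04, 0.33 and 0.73, adjusted p = 0.968, 0.691 and 0.139), although its 24 h arrays all lay above. ER-MyoD wt passed at 6 h (1.02 ± 0.31 with adjusted p = 0.0413), 12 h (0.998 ± 0.31 with adjusted p = 0.0393) and 24 h (2.29 ± 0.31 with adjusted p = 1.9e-06). The 6 h call was lost in turn without each of 5 of the 6 arrays compared, all but empty retrovirus replicate 2 (adjusted p = 0.0518 to 0.204), and as deposited, with median centring, log2(signal + 1) or only the groups compared (0.0561 to 0.119). The 12 h call was lost in turn without each of ER-MyoD wt replicates 1 and 3 and empty retrovirus replicates 1 and 3 (0.102 to 0.158), and as deposited, with log2(signal + 1), only the groups compared or without the 3 arrays that stood apart (0.0786 to 0.125). Within ER-MyoD RRR the level was higher at 24 h than at 6 h by 1.46 ± 0.31 (adjusted p = 0.00098), with the lowest 6 h array at 3.46 beside others of 36.1 and 28.3.

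Read together against empty retrovirus, ER-MyoD RRR was higher for 3 of the 9 genes at 6 h (Mycl, Gal3st2 and Cystm1), 4 at 12 h (these and Prune2) and 6 at 24 h (Prune2, Mycl, Gal3st2, Mss51, Slc22a4 and Plpp7). Of all probe sets 4.05%, 2.89% and 5.15% were higher in these comparisons. It was lower for 1 gene at 6 h (Mss51), where 4.65% of all probe sets were lower, and for 0 at 12 h and 24 h (2.51% and 6.77%), in the limma fit and also at an unadjusted p under 0.05. With only the arrays of the 2 groups fitted, 1 gene was higher at 6 h. The median difference of the 9 genes was 0.28, 0.51 and 1.44, against 0.01, -0.01 and 0.01 for all probe sets. ER-MyoD wt was higher than empty retrovirus for 6, 9 and 9 genes (3.85%, 4.46% and 7.33% of all probe sets), with medians of 1.63, 2.85 and 3.26, against -0.01, -0.01 and 0.02 for all probe sets. Both comparisons use the same empty retrovirus arrays. Within ER-MyoD RRR 6 genes were higher at 24 h than at 6 h (Prune2, Mycl, Mss51, Slc22a4, Plpp7 and Pgbd5, by 1.25 to 3.40) and Castor2 was lower, where 7.27% and 7.76% of all probe sets were. Gal3st2 (0.79, adjusted p = 0.0678) and Cystm1 (-0.05, adjusted p = 0.913) did not pass. The arrays of both fusions helped to choose the genes, so these counts and those that follow are not independent of the choice. A choice for low mutant levels at 6 h favours a later rise. The difference from empty retrovirus was higher at 24 h than at 6 h for 3 genes with ER-MyoD RRR (2.52% of all probe sets), where that of Mss51 changed sign, and for 3 with ER-MyoD wt (3.5%). Against 0 h the wild type was higher for 6, 8 and 9 genes (6.08%, 6.35% and 10.1% of all probe sets); the exceptions were Slc22a4 (0.54, adjusted p = 0.317), Plpp7 (-0.06, adjusted p = 0.941) and Pgbd5 (0.48, adjusted p = 0.415) at 6 h and Pgbd5 at 12 h (0.76, adjusted p = 0.124). At 24 h the difference from 0 h ran from 0.80 for Castor2 (adjusted p = 0.0151) to 4.72 for Plpp7, and that of Castor2 did not pass in turn without ER-MyoD wt 0 h replicate 2 or 24 h replicates 1 and 2 (0.053 to 0.129).

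**Figure D2:**
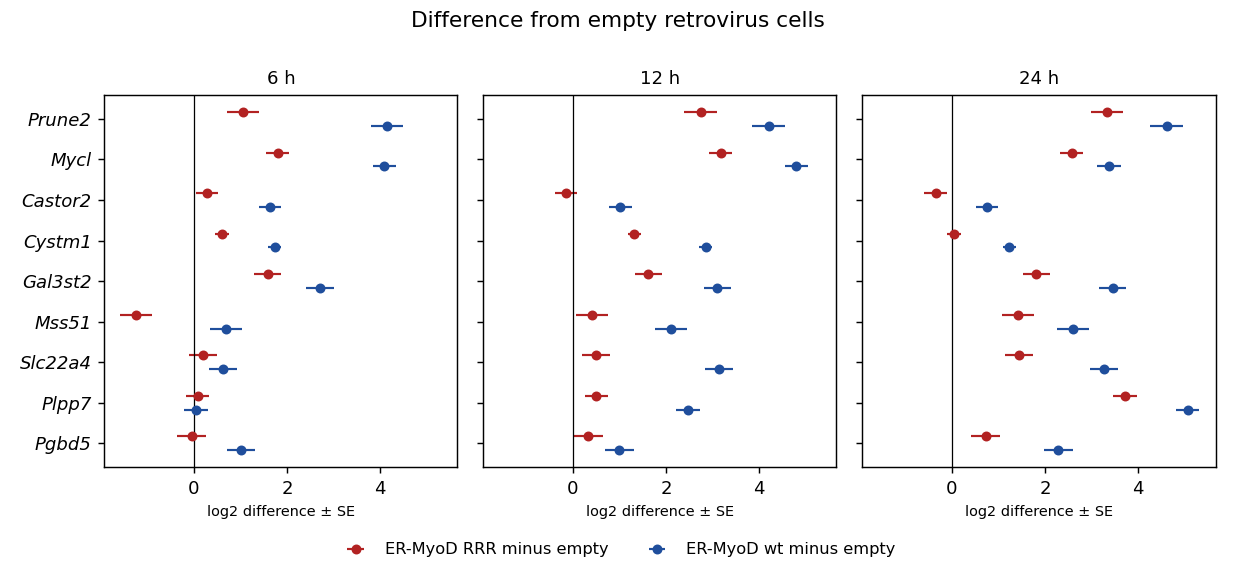
Difference from empty retrovirus cells on the scale log2(signal + 16), as mean ± standard error of the limma model with 3 arrays per group, for ER-MyoD RRR and ER-MyoD wt at 6, 12 and 24 h. The points of ER-MyoD RRR lie left of those of ER-MyoD wt for every gene except Plpp7 at 6 h, which restates the choice of the genes. For Castor2 the points of ER-MyoD RRR lie at 0.28, -0.14 and -0.35.

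The difference that chose the genes, ER-MyoD RRR minus ER-MyoD wt, is given for description only, and for the brightest probe set of each gene. Not all probe sets showed it. At 6 h the model called 1 of 4 probe sets of Prune2, 1 of 3 of Mycl, 2 of 4 of Castor2 and 1 of 2 of Cystm1 lower. At 12 h it called 1 probe set of each of these genes lower, and at 24 h 1 of each except Mycl, with 0. On the brightest probe sets the mutant arrays lay wholly below the wild-type arrays for 8 of the 9 genes at 6 h and for all 9 at 12 h and 24 h. How many of all probe sets had such separate arrays was not counted. By the model 6, 8 and 7 of the 9 genes were called lower, where 1.1%, 0.338% and 0.99% of all probe sets were. These calls restate the choice and are no test of it. At 6 h the differences were -3.08 ± 0.35 for Prune2, the lowest of all 45037 probe sets, -2.28 ± 0.25 for Mycl, -1.92 ± 0.34 for Mss51, -1.35 ± 0.24 for Castor2, -1.13 ± 0.14 for Cystm1, -1.12 ± 0.29 for Gal3st2, -1.06 ± 0.31 for Pgbd5, -0.45 ± 0.30 for Slc22a4 and 0.04 ± 0.25 for Plpp7. The last 2 genes were at the bottom of the scale in both constructs at that time. At 12 h they were -2.65 ± 0.30 for Slc22a4 and -1.96 ± 0.25 for Plpp7, whose mutant arrays lay mostly under 16, so that the size depends on the constant added. These were followed by Mss51 (-1.69), Mycl (-1.62), Cystm1 (-1.53), Gal3st2 (-1.48), Prune2 (-1.46), Castor2 (-1.17) and Pgbd5 (-0.66). At 24 h they ran from Slc22a4 (-1.82), Gal3st2 (-1.64), Pgbd5 (-1.56), Plpp7 (-1.34) and Prune2 (-1.28) to Cystm1 (-1.18), Mss51 (-1.18), Castor2 (-1.10) and Mycl (-0.80). Prune2, Mycl, Mss51 and Castor2 thus had their widest gap at 6 h, Slc22a4, Plpp7 and Cystm1 at 12 h, and Gal3st2 and Pgbd5 at 24 h.

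How far the mutant came toward the wild type was also expressed as its excess signal over empty retrovirus in percent of the wild-type excess, where the wild-type excess was at least 50 signal units and its arrays lay above all empty retrovirus arrays. This share used the arrays that chose the genes and is a description, with the range over leaving out each array in turn. Mycl reached 14.4% (11.7 to 16.3) at 6 h, 29.4% (27.8 to 30.3) at 12 h and 53.9% (47.9 to 60.2) at 24 h. Prune2 reached 5.37% (3.83 to 7.37), 34.0% (25.7 to 42.0) and 36.0% (28.1 to 48.9) on its brightest probe set. On its probe set 1455342_at the share was larger at each time. Mean signals there were 116, 215 and 355 with ER-MyoD RRR at 6, 12 and 24 h. They were 273, 305 and 573 with ER-MyoD wt and 39.7, 60.9 and 89.2 with empty retrovirus. Gal3st2 kept to 28.6% (23.9 to 34.2), 25.4% (22.6 to 32.4) and 25.2% (21.7 to 29.5) at the 3 times, with overlapping ranges. Cystm1 had 21.0% (14.4 to 28.5), 24.0% (23.2 to 24.9) and 0.665% (-3.19 to 6.17), and Castor2 2.61% (-5.40 to 10.3), -12.4% (-22.3 to 5.19) and -32.9% (-51.4 to -24.8), so for both the share at 24 h was the lowest of the 3. Mss51, Slc22a4 and Plpp7 had no share at 6 h, and theirs was higher at 24 h than at 12 h. At these 2 times it was 36.2% (32.9 to 42.3) and 8.05% (2.68 to 15.5) for Mss51, 26.003% (20.8 to 35.8) and 4.95% (0.734 to 7.23) for Slc22a4, and 39.2% (37.3 to 42.5) and 8.58% (3.11 to 12.2) for Plpp7. Pgbd5 had a share only at 24 h, of 20.2% (13.9 to 24.4). For comparison Myog, the muscle transcription factor that follows MyoD, reached 24.9% at 12 h and 63.4% at 24 h, with mean signals of 158 and 3884 with ER-MyoD RRR, 613 and 6113 with ER-MyoD wt, and 7.15 and 15.0 with empty retrovirus. At 6 h its wild-type excess was under 50 units. Myog was not among the genes chosen for a low mutant level, so its shares are only given beside those of the 9 genes.

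**Figure D3:**
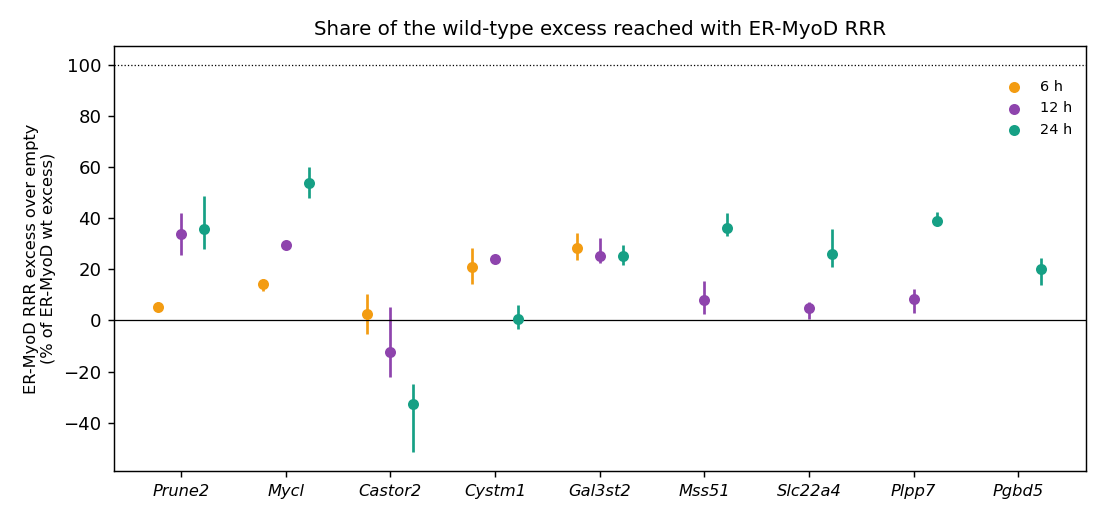
Excess signal of ER-MyoD RRR over empty retrovirus in percent of the excess of ER-MyoD wt, on the brightest probe set of each gene. Values at 6, 12 and 24 h are shown where the wild-type excess was at least 50 signal units. Points are from group means of 3 arrays, bars span the values with each array left out in turn, and the dotted line marks the wild-type level; the highest point is Mycl at 24 h (53.9%) and the lowest Castor2 at 24 h (-32.9%).

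A later mutant time was also set beside an earlier wild-type time. The arrays are those that chose the genes, which favours low mutant and high wild-type levels. No share over all probe sets was counted, so these counts are a description only. The mutant at 12 h lay wholly below the wild type at 6 h for 5 of the 9 genes (Prune2, Mycl, Castor2, Cystm1 and Mss51), overlapped it for 4 and lay above it for 0. The mutant at 24 h lay below the wild type at 12 h for 5 genes (Mycl, Castor2, Cystm1, Gal3st2 and Slc22a4), overlapped it for 3 (Prune2, Mss51 and Pgbd5) and lay above it for Plpp7. Mycl, Castor2 and Cystm1 were thus below the earlier wild type in both of these settings.

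Across the 10 group means the 9 genes were alike to different degrees. Pearson's r between pairs of them ran from 0.065 (Castor2 and Plpp7) to 0.961 (Mycl and Gal3st2), with a median of 0.79 over 36 pairs. All pairs share the same arrays and a higher level with ER-MyoD wt than with empty retrovirus at 12 h and 24 h. The genes were also chosen for a common difference, so r describes the shape only. The genes with the profile most like each, among 8119 genes whose group means spanned at least 1 log2 unit, were the following. For Mycl they were Adamtsl2 (0.993), Arsj (0.986) and the cadherin of muscle cells Cdh15 (0.983). For Plpp7 they were Myo5b (0.993), Hdac11 and Galnt9 (0.983 each), and for Prune2 Prkar2b, Ube2d1 (0.975 each) and a probe set annotated to the muscle microRNA gene Mir133b (0.973). Gal3st2 was most like Tspan33 (0.977), Mir133b (0.97) and Dnajc5 (0.964), Pgbd5 like Tmtc2 (0.974), Bspry (0.972) and Igtp (0.968), and Mss51 like Tmtc4 (0.968), Rragd (0.966) and Elmod2 (0.958). Cystm1 was most like Accs (0.959), Actn3, an actin crosslinker of fast muscle fibres (0.935), and Agap1 (0.934), and Slc22a4 like Wfs1 (0.957), Ccdc88b (0.955) and Cd80 (0.94). Castor2 had the least close match, with 4933402N03Rik (0.917), Pkp1 (0.912) and Krt7 (0.898).

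**Figure D4:**
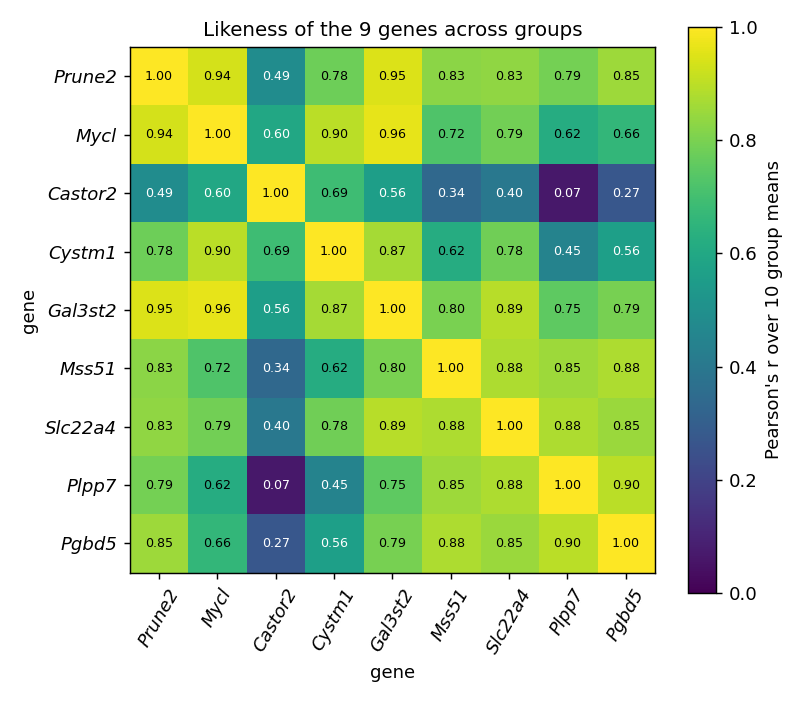
Pearson's r between the 9 genes over 10 group means (normalised log2 signal), from 0 (dark) to 1 (bright), with the value printed in each cell. The row of Castor2 is the darkest, with 0.065 for Plpp7, while Mycl and Gal3st2 reach 0.961.

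The relatives of the 9 genes, listed by family or pathway, are genes the choice did not use. Of 142 listed, 134 were measured, each read on its brightest probe set. Their shares are thus not like for like with those of all probe sets. In ER-MyoD RRR minus ER-MyoD wt 2 relatives were higher and 1 lower at 6 h (2.24%), 2 higher and 2 lower at 12 h (2.99%) and 2 higher and 1 lower at 24 h (2.24%), where 1.68%, 0.657% and 2.56% of all probe sets passed in either direction. The median difference of the relatives was 0.04 at 6 h and -0.03 at 12 h, against 0.02 and 0.00 for all probe sets. The count at 6 h was 1 without ER-MyoD RRR replicate 3 or any of the ER-MyoD wt arrays, 5 without ER-MyoD RRR replicate 2, and 0 with median centring. At 24 h it was 6 without ER-MyoD RRR replicate 2, 5 without ER-MyoD wt replicate 3, and 5 to 11 under 6 of the other settings. None of the 12 other genes of the MYC network passed at any time, among them Myc, Mycn and their partner Max, and neither did any of 16 SLC22 transporters, 17 carbohydrate sulfotransferases or 12 domesticated transposases. At an unadjusted p under 0.05 in the same limma fit, 2, 1 and 1 genes of the MYC network, 5, 0 and 2 SLC22 transporters, 1, 0 and 1 sulfotransferases and 2, 3 and 1 transposases were counted at 6, 12 and 24 h. The clearest exception was Plpp3, a phosphatase of lipid phosphates and a relative of Plpp7, which was higher with the mutant at every time. Its mean signal was 641, 713 and 702 with ER-MyoD RRR and 384, 261 and 282 with ER-MyoD wt at 6, 12 and 24 h, a difference of 0.69 ± 0.13, 1.36 ± 0.13 and 1.34 ± 0.13 (adjusted p = 0.00366, 2.91e-07 and 2.64e-07). Against empty retrovirus, with means of 728, 588 and 1359, Plpp3 was lower with ER-MyoD wt at each time (-0.96, -1.13 and -2.33, all passed). Among amino acid sensing genes, the Rag GTPase gene Rragd was lower at 6 h (-1.23, adjusted p = 0.046) and Sesn3, a sestrin, higher at 12 h (0.77, adjusted p = 0.00632). Of 18 nuclear envelope genes, the lamin gene Lmnb2 (-1.48, adjusted p = 0.0319) and Wfs1 (-0.90, adjusted p = 0.00145) were lower at 12 h, and Tmpo, which encodes lamina-associated polypeptides, higher at 24 h (0.95, adjusted p = 0.00504). Prune1 was lower at 24 h (-0.73, adjusted p = 0.0113) and the methyltransferase gene Smyd2 higher at 6 h (0.49, adjusted p = 0.0331).

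**Figure D5:**
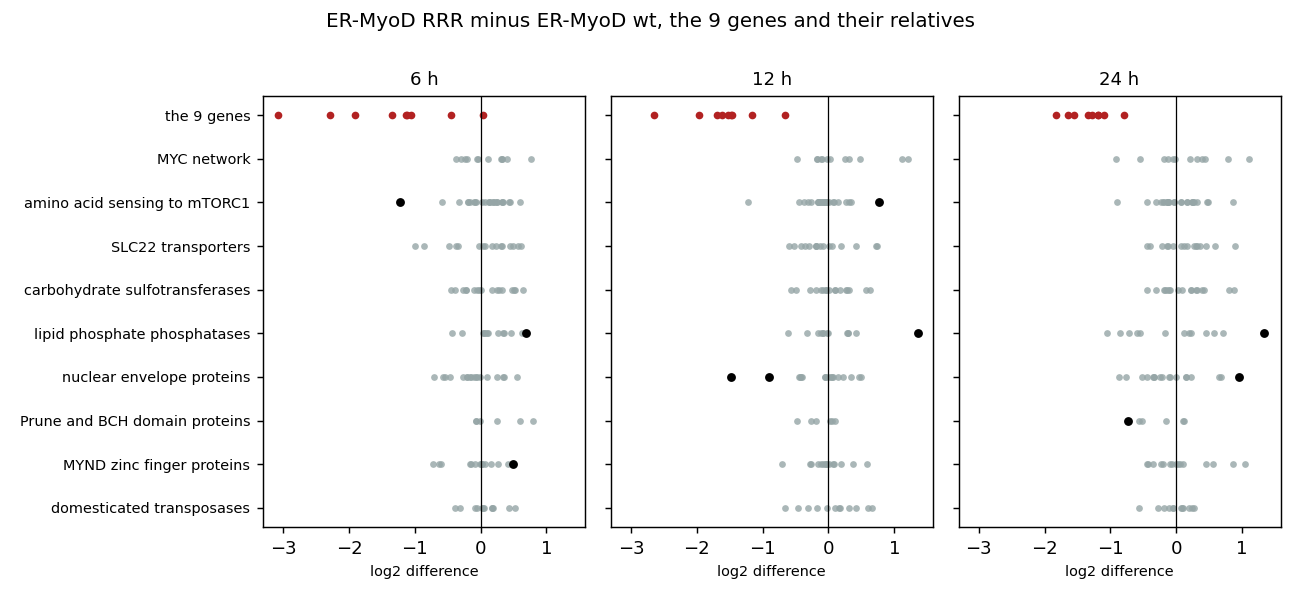
ER-MyoD RRR minus ER-MyoD wt on the log2 scale at 6, 12 and 24 h for the 9 genes (red, description only) and for 134 relatives in 9 lists (grey, and black where the adjusted p was under 0.05). The 9 genes spread from -3.08 to 0.04 at 6 h, while most relatives lie around 0 and Plpp3 lies at 0.69, 1.36 and 1.34.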

How the data were processed

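Total RNA of 30 samples was hybridised to 1-colour arrays, 3 arrays for each of 10 groups of construct and time. Per the file headers and values, the deposited numbers are signal intensities on a linear scale, 1 per probe set and array, from 0.0474 to 20986, and the authors had scaled each array so that its mean without the highest and lowest 2% was 150. The software behind this step is not given in the sources used here. Precision is limited by having 3 arrays a group.

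Of 45101 probe sets, 64 controls were left out and 45037 tested. In the platform annotation 34945 had 1 symbol, 932 had several and 9160 had none, and genes were named only from probe sets with 1 symbol. Intensities were quantile normalised, 16 was added and log2 taken. A mean for each of the 10 groups was fitted with limma 3.58.1 (R 4.3.3, package data.table at version 1.17.8, lmFit and eBayes with a mean-variance trend, 20 residual degrees of freedom), two-sided, with Benjamini-Hochberg adjustment over all probe sets. The fit was tested on simulated data. Figures and motif counts used Python 3.11.15, pandas 2.3.3 and matplotlib 3.10.9.

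Each of the 9 genes was represented by its probe set with the highest mean signal. Other genes were named by rule: Myod1 and Myog as checks, cell type markers, the 3 genes whose group means correlated best with each of the 9, and from each list of relatives up to 3 genes that passed between ER-MyoD RRR and ER-MyoD wt. The 9 genes and all lists were chosen with earlier results of these data known. Alternatives tried were signals as deposited, median centring, an added 1 or 64, a filter at a mean signal of 50, 1 probe set per gene, fits of only the groups compared, a replicate block, leaving out the 3 arrays that stood apart, and leaving out each array in turn.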

Additional observations from a re-analysis of the deposited data

Results flagged for a closer look

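The difference of a fusion from empty retrovirus was compared between 24 h and 6 h as a difference of differences in the limma fit, a test added with the data known. The fusion arrays also helped to choose the genes, so these tests are not independent of the choice. A choice for a low mutant level at 6 h favours a later rise with ER-MyoD RRR. With ER-MyoD RRR the difference from empty retrovirus was higher at 24 h than at 6 h for 3 of the 9 genes: Prune2 by 2.27 ± 0.50 (adjusted p = 0.00411), Mss51 by 2.64 ± 0.49 (adjusted p = 0.000707) and Plpp7 by 3.63 ± 0.36 (adjusted p = 1.05e-07), each on the log2 scale with its standard error. For Mss51 this is a change of sign, with -1.23 at 6 h and 1.42 at 24 h, and the 6 h call was lost in turn without each of 4 arrays. With ER-MyoD wt the difference was higher at 24 h for Mss51 by 1.91 ± 0.49 (adjusted p = 0.0103), Slc22a4 by 2.62 ± 0.43 (adjusted p = 7.86e-05) and Plpp7 by 5.01 ± 0.36 (adjusted p = 1.03e-10). These differences are of the brightest probe sets. Of the 4 probe sets of Prune2 only the brightest passed with ER-MyoD RRR. For Castor2 1 of 4 probe sets passed as lower at 24 h with each fusion, in neither case the brightest. Of all probe sets 2.52% were higher in this way with ER-MyoD RRR and 3.5% with ER-MyoD wt, and the share that was lower is not given here. Mss51 and Plpp7 thus passed with both fusions; whether the change differed between the fusions is the comparison that chose the genes and was not tested.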

How the results depend on the processing

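Of 90 differences of single genes, 62 passed; 9 of these were lost and 3 others gained under some alternative. Genes above empty retrovirus with ER-MyoD RRR numbered 3, 4 and 6 at 6, 12 and 24 h, and 2 to 3, 4 to 4 and 5 to 6 with single arrays left out. The 6 h count was 1 with only the groups compared. With ER-MyoD wt they numbered 5 to 6, 8 to 9 and 8 to 9 with arrays left out, 5, 8 and 8 as deposited, 5, 9 and 8 with median centring, 6, 8 and 9 with log2(signal + 1), and 5, 8 and 9 with only the groups compared, and above 0 h 6 to 6, 8 to 8 and 8 to 9. Genes changed in empty retrovirus numbered 0 to 1 with arrays left out, 0 with median centring or only the groups compared, and 2 with log2(signal + 1). Relatives changed between the fusions numbered 1 to 5, 3 to 3 and 2 to 6 with arrays left out. At 6 h they were 0 with median centring or only the groups compared and 6 without the 3 arrays that stood apart, at 12 h 2 with median centring, and at 24 h 5 as deposited, 8 with log2(signal + 64), 9 with the filter, 11 with 1 probe set per gene, 5 with only the groups compared and 7 without those 3 arrays. The median difference between the fusions over the 9 genes and 3 times, -1.35, was -1.46 to -1.34 with arrays left out. Signs turned only where no test passed. For Plpp7 at 6 h the difference of ER-MyoD wt from empty retrovirus was -0.0309 as deposited and -0.0748 to 0.16 with arrays left out, ER-MyoD RRR minus empty retrovirus -0.0376 to 0.19, and ER-MyoD wt minus 0 h -0.22 to 0.0481. Other turns against empty retrovirus with ER-MyoD RRR were Pgbd5 at 6 h (0.0081 with log2(signal + 64), -0.29 to 0.41), Castor2 at 12 h (-0.30 to 0.14) and Cystm1 at 24 h (-0.0721 with median centring, -0.0314 to 0.17). In empty retrovirus from 6 h to 24 h Slc22a4 was -0.0079 as deposited, -0.0075 with median centring and -0.0489 to 0.0644 with arrays left out, Castor2 -0.41 to 0.0321 and Mss51 -0.34 to 0.42. The causes were not tested. Over 135 pairs of arrays with the same replicate number in different groups, deviations correlated by -0.142 to 0.216 (16 over 0.1). Their median was 0.021, against -0.011 for pairs with other numbers, and 18 of 30 arrays correlated best with their own number. The main fit did not use replicate numbers, and the cause of this likeness was not tested. With replicate number as a block the counts against empty retrovirus were 4, 4 and 6 for ER-MyoD RRR, with Prune2 gained at 6 h, and 6, 9 and 9 for ER-MyoD wt. Dim genes limit what can be seen, since 1 of the 9 fell under the filter at a mean signal of 50.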
